A study of Mus musculus with 2 samples.

Results

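Chitinase-like and chitinase genes were compared between a culture treated with a Hedgehog pathway inhibitor and its solvent control. The 4 members were taken by symbol, with no threshold on their values: Chil3, Chil4, Chil1 and Chit1, out of 20003 genes listed. All 4 had reads in both libraries, and 3 of them reached a mean of 1 CPM (counts per 1000000 scaled reads), the floor used for calls. The M2+GANT61 library came from cells given GANT61 at 10 µM, an inhibitor of the GLI proteins, the transcription factors in which the Hedgehog pathway ends. The M2+DMSO library came from cells given the solvent. The cells of both groups were labelled RAW 264.7, a mouse macrophage line. Both had received macrophage colony-stimulating factor (M-CSF) at 20 ng/mL and then, 4 h after GANT61 or DMSO, interleukin 4 (IL-4) at 10 ng/mL. The labels give the time with IL-4 both as 15 min and as 24 h. The question of the series was what Hedgehog blockade does to the transcriptome of alternatively activated (M2) macrophages.

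Each group had 1 library, of 57705874 reads for M2+GANT61 and 61632784 for M2+DMSO. No difference below has a replicate check, no p-value is given, and every 95% interval covers counting error only. Calls of higher or lower followed a fixed rule, without a test. The scaled ratio of a gene had to reach 1.5 or its inverse, with an interval that excluded 1 and a mean of at least 1 CPM. By this rule 1972 genes (14.1% of the 13939 considered) were higher and 1436 (10.3%) were lower in the M2+GANT61 library. Genes under the floor cannot be called, but are counted in the sizes of the gene lists below. Set to a median log2 ratio of 0 for macrophage identity genes instead, the numbers were 368 higher and 11168 lower. That scaling shifts every log2 ratio, and so the median of all genes, by -0.99. Both libraries also held abundant transcripts of cells other than macrophages, which goes against the label of a single cell line. Levels of a transcript in such bulk RNA cannot tell fewer cells of a type from less RNA per cell.

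Chitinases are enzymes that cut chitin, the polymer of N-acetylglucosamine in fungal walls and in insect and worm cuticles. Mammals do not make chitin, yet carry a family of such proteins, the GH18 glycoside hydrolases. Chit1, chitotriosidase, is an active chitinase that human macrophages secrete, in large amounts when they are loaded with lipid. The chitinase-like proteins keep the fold but have lost the enzyme activity. Chil3 (Ym1) and Chil4 (Ym2) are rodent proteins. Chil3 is among the most used markers of mouse macrophages activated by IL-4 through the transcription factor STAT6, and bone marrow neutrophils express it too. Chil4 is known mainly from airway epithelium in allergic inflammation. Chil1 (BRP-39), the mouse counterpart of human YKL-40, was first found in mammary tumour cells and is made by macrophages, neutrophils and epithelia.

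The difference between the enzyme and its relatives can be read in the genes. The coding sequences around the catalytic motif are shown because they separate Chit1 from the 3 chitinase-like members. They come from GENCODE M21 transcripts (GRCm38, the assembly also called mm10), 5′ to 3′ on the coding strand, with capitals on the codon aligned with the catalytic glutamate of Chit1.
Chit1: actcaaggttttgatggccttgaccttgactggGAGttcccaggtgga
Chil1: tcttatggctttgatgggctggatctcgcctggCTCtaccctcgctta
Chil3: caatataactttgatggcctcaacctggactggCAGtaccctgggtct
Chil4: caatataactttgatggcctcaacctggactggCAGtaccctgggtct
Each stretch of 48 bases lies in exon 5 of its transcript. They are at chr1:134145322-134145369 (plus strand) in Chit1, chr1:134185219-134185266 (plus strand) in Chil1, chr3:106160416-106160463 (minus strand) in Chil3 and chr3:106210521-106210568 (minus strand) in Chil4. The capital codon encodes glutamate in Chit1 only, among these 4. Chil3 and Chil4 are identical over this stretch.

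The members form pairs on the genome. Chit1 (chromosome 1, 134111242 to 134151541) and Chil1 (134182156 to 134190031) lie 30615 bases apart on the plus strand, by RefSeq on GRCm38. Chil3 (chromosome 3, 106147554 to 106167564) and Chil4 (106201491 to 106219479) lie 33927 bases apart on the minus strand. Chil1 and Chit1 shared 63.5% of aligned coding bases, and Chil1 and Chil3 55.8%. Chil4 and Chil3 shared 95.3% of 1197 aligned coding bases.

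This likeness bears on how reads are divided between Chil3 and Chil4. Over the whole transcripts, each of 1539 bases, 1452 of 1538 aligned bases were identical and 86 differed. The longest identical run was 136 bases. Of all stretches of 50 bases in the Chil3 transcript, 29.4% occurred in another gene, namely Chil4 or the predicted gene Gm6522. For Chil4 the share was 20.4%. With stretches of 100 bases the shares were 5.42% for Chil3 and 3.75% for Chil4. No stretch of 50 bases of Chil1 or Chit1 occurred in another gene of this annotation. The deposited estimates for Chil3 were whole, at 10162 reads in the M2+GANT61 library and 2940 in the M2+DMSO library. Those of Chil4 were 83.0083 and 2.00069 reads in the same libraries. How the authors treated reads that match both genes is not given in the sources used here, so both values are uncertain and the sum is given beside them.

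**Figure D1:**
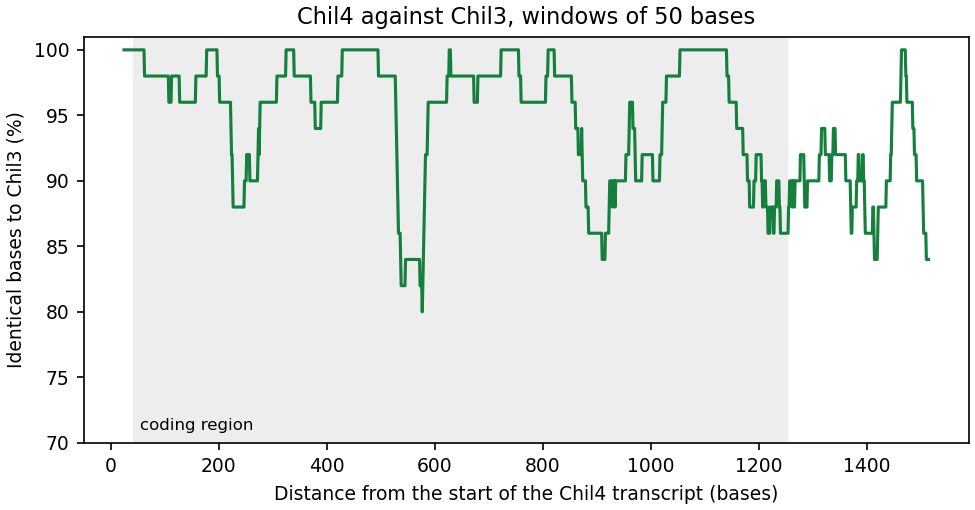
Share of bases of the Chil4 transcript identical to Chil3 (y axis, percent) against the distance from the start of the Chil4 transcript (x axis, bases), in sliding windows of 50 bases, with the coding region shaded. Identity runs between 80% and 100%, and the plot reaches 100% in several places, where a read of that length fits both genes.

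Chil3 was the most abundant member in both libraries and was higher in the M2+GANT61 library. It stood at 91.8 RPKM in the M2+GANT61 library and 24.2 RPKM in the M2+DMSO library. RPKM values are divided by gene length, so they allow levels of different genes to be compared. In scaled counts Chil3 was at 179 CPM in the M2+GANT61 library, against 47.0 CPM in the M2+DMSO library. The ratio was 3.81 (3.65 to 3.97), and 1.69% of the genes considered had a ratio at least as high. Chil3 supplied 86.4% of the summed RPKM of the 4 members in the M2+GANT61 library and 86.0% in the M2+DMSO library. Its share of the set therefore hardly differed while the sum of the set was 106 RPKM in the M2+GANT61 library and 28.1 RPKM in the M2+DMSO library.

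Chil4 was rare, and nearly all of its reads came from the M2+GANT61 library. It had 83 reads there (95% exact Poisson interval 66.1 to 103), against 2 (0.242 to 7.22) in the M2+DMSO library. Its level was 0.764 RPKM in the M2+GANT61 library and 0.0168 RPKM in the M2+DMSO library. The ratio was 36.8, with a wide interval of 12.3 to 384 set by the 2 reads. Its mean of 0.746 CPM lay under the floor, so it was not called. Chil4 held 0.810% (exact binomial interval 0.646 to 1.003) of the reads of both genes in the M2+GANT61 library, against 0.0680% (0.00823 to 0.245) in the M2+DMSO library. These intervals do not overlap, so by counting error alone reads given to Chil4 were not a constant share of the pair. Summed, Chil3 and Chil4 had 10245 and 2942 reads in the M2+GANT61 and M2+DMSO libraries and a ratio of 3.83 (3.68 to 4.00). The sum does not depend on how reads were divided between them. It can still depend on whether reads that fit both genes were dropped, and on reads shared with Gm6522.

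Chil1 was also higher in the M2+GANT61 library, to an extent close to that of Chil3. It had 1462 reads in the M2+GANT61 library (1388 to 1539) and 373 in the M2+DMSO library (336 to 413). Its level was 12.03 RPKM in the M2+GANT61 library and 2.80 RPKM in the M2+DMSO library. The ratio was 4.31 (3.85 to 4.85), and 1.31% of the genes considered reached it. The ratio of Chil3 divided by that of Chil1 was 0.882 (0.779 to 0.996), a value that no scaling of the libraries can change. Its interval excludes 1 only just, and covers no spread between replicates.

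Chit1, the active enzyme, differed less than the chitinase-like members. It had 220 reads in the M2+GANT61 library (192 to 251) and 164 in the M2+DMSO library (140 to 191). Its level was 1.65 RPKM in the M2+GANT61 library and 1.12 RPKM in the M2+DMSO library. The ratio of 1.48 (1.20 to 1.82) fell short of 1.5, and 14.8% of the genes considered had one at least as high. The ratio of Chil3 divided by that of Chit1 was 2.58 (2.08 to 3.18), and that of Chil1 divided by that of Chit1 was 2.92 (2.30 to 3.71). Both intervals lie well above 1, again for counting error only. Set to the macrophage identity median, Chit1 turned to a ratio of 0.746, while Chil3 stood at 1.92, Chil1 at 2.18 and Chil4 at 18.6.

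**Figure D2:**
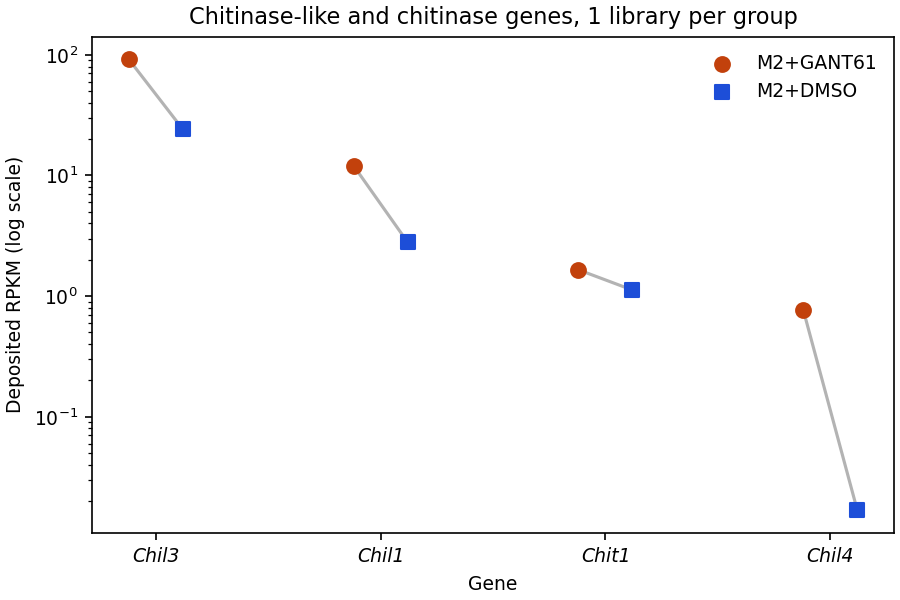
Deposited RPKM (y axis, log scale) of the 4 members (x axis) in the M2+GANT61 library (circles) and the M2+DMSO library (squares), 1 library per group and no error bars. All 4 circles lie above their squares, by the least for Chit1 (1.65 and 1.12 RPKM) and by the most for Chil4 (0.764 and 0.0168 RPKM).

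The order of the levels per length was the same in both libraries: Chil3, Chil1, Chit1, Chil4. The distances between the members were not. Chil3 was 7.63 times Chil1 in RPKM in the M2+GANT61 library and 8.65 times in the M2+DMSO library. Chil1 was 7.28 times Chit1 in the M2+GANT61 library, against 2.49 times in the M2+DMSO library. Chit1 was 2.16 times Chil4 in the M2+GANT61 library and 66.9 times in the M2+DMSO library.

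**Figure D3:**
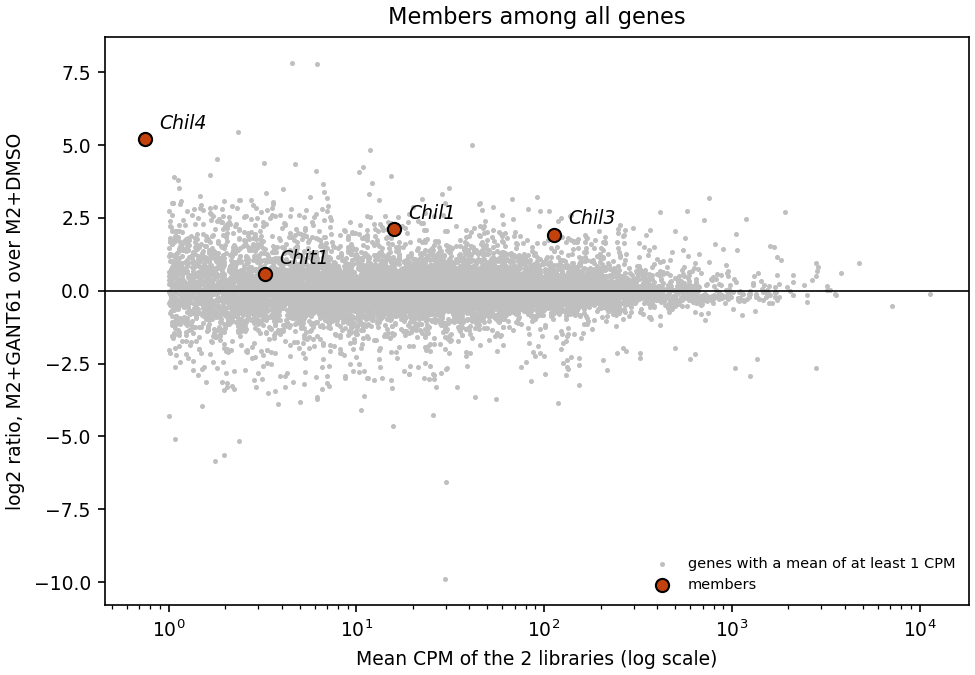
Log2 ratio of M2+GANT61 over M2+DMSO (y axis) against the mean CPM of both libraries (x axis, log scale) for genes over the floor of 1 CPM (grey) and the 4 members (outlined). Chil3 and Chil1 lie on the upper edge of the grey cloud, at log2 ratios of 1.93 and 2.11, Chit1 lies inside it at 0.56, and Chil4 lies left of the floor at 5.20.

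Other GH18 genes differed little. Chid1, a widely expressed relative that binds sugars, was at 10.8 RPKM in the M2+GANT61 library and 8.27 RPKM in the M2+DMSO library, a ratio of 1.31 (1.25 to 1.38). Ctbs, a lysosomal chitobiase that trims the core of N-linked glycans, was at 4.94 RPKM and 4.44 RPKM in the same libraries, a ratio of 1.12 (1.02 to 1.22). Ovgp1, the oviduct glycoprotein, had 34 reads in the M2+GANT61 library and 29 in the M2+DMSO library, and Chil5 had 11 and 10. Both lay under the floor, with intervals that include 1. Chil6 had 0 reads in the M2+GANT61 library, which allows up to 3 reads or 0.0528 CPM, and 2 in the M2+DMSO library. Chia1, the acidic chitinase whose gene lies between Chil5 and Chil3, was not analysed here. Of the 9 family genes measured, 5 reached the floor. Of these 5, 2 (Chil3 and Chil1) were called higher and 0 lower, beside 14.1% and 10.3% of all genes considered. With no floor Chil4 was called too. Chil3 made up 75.1% of the family's summed RPKM in the M2+GANT61 library and 58.9% in the M2+DMSO library.

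**Figure D4:**
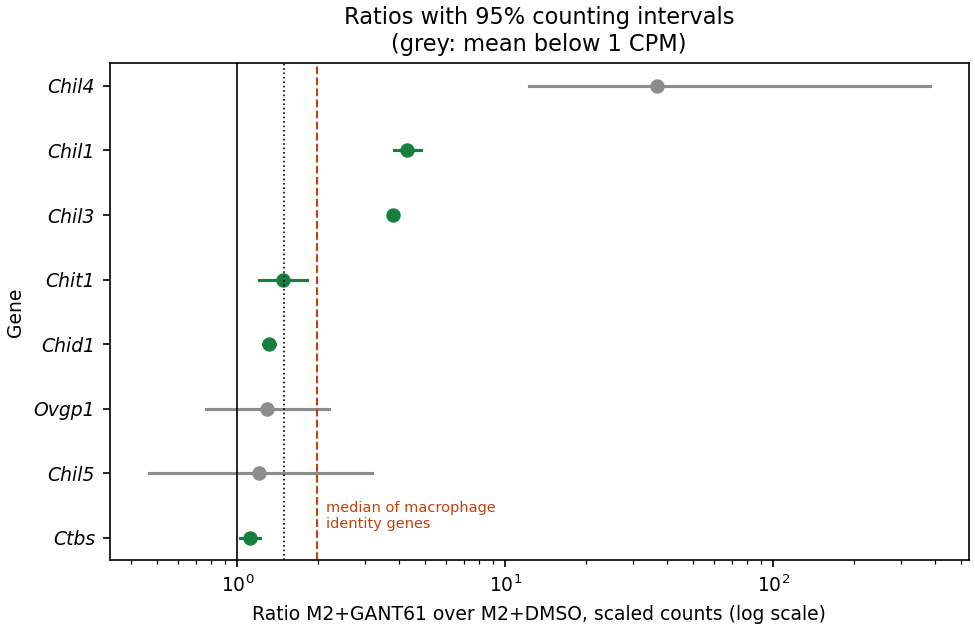
Ratio of M2+GANT61 over M2+DMSO with its 95% counting interval (x axis, log scale) for the GH18 genes with reads in both libraries (y axis), in grey where the mean is below 1 CPM. Lines mark 1 (solid), the threshold of 1.5 (dotted) and the median ratio of macrophage identity genes, 1.98 (dashed). Chil1 and Chil3 lie to the right of all 3 lines, whereas the Chit1 interval of 1.20 to 1.82 ends before the dashed line.

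The sequences upstream of Chil3 and Chil4 are shown because both genes had more reads in the same library and their start regions are nearly alike. Over the 250 bases before each RefSeq start (GRCm38.p6), 201 of 220 aligned bases were identical. Capitals mark TTCNNNGAA, the palindromic core that STAT factors recognise, searched on both strands.
Chil3: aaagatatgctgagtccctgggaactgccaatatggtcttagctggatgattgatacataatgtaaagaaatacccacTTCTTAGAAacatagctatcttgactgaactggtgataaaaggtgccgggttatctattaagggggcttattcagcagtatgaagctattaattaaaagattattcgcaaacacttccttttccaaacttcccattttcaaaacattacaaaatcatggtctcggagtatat
Chil4: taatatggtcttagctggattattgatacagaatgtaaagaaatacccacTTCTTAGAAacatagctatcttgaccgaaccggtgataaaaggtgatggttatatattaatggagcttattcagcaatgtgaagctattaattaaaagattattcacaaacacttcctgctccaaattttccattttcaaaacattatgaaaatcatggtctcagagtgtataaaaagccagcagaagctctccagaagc
The Chil3 window is chr3:106167565-106167814 and the Chil4 window chr3:106219480-106219729, both on the minus strand. Both held 1 match, with its first base 172 bases before the annotated start of Chil3 and 200 before that of Chil4. The difference rests on the annotation: GENCODE starts Chil4 upstream, at 106219507 against 106219479 in RefSeq, but Chil3 at 106167564 in both. The windows of Chil1 and Chit1 held none. Of 27025 genes with a window, 7.18% held this motif. The form with a spacer of 4 bases between TTC and GAA, which STAT6 prefers, was in none of the 4 windows and in 5.86% of all. The GLI core GACCACCCA was in none of the 4 windows and in 0.211% of all. The AP-1 core TGANTCA was in the Chit1 window, as in 6.87% of all. No match overlapped another. A match is a run of letters, not a bound site, and its absence from a window says nothing about a factor elsewhere.

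Among genes of proteins reported to bind Chil1 or its human counterpart, 1 had a larger ratio than Chil1 itself. Il13ra2, the second IL-13 receptor chain and a receptor of human CHI3L1, was at 24.4 CPM in the M2+GANT61 library and 4.15 CPM in the M2+DMSO library, a ratio of 5.87 (5.15 to 6.74). Lgals3, the sugar-binding protein galectin 3, had a ratio of 1.88 (1.85 to 1.92) and Sdc1, the cell surface proteoglycan syndecan 1, of 1.67 (1.64 to 1.71). Of 7 genes in this list, 5 over the floor, 3 were higher and 0 lower, beside 14.1% and 10.3% of genes considered. Tmem219, which acts with Il13ra2, had a ratio of 1.23 (1.13 to 1.33) and Cd44, a hyaluronan receptor, of 1.48 (1.45 to 1.503), just under the threshold. The median log2 ratio of the list was 0.67, against -0.01 over all genes with reads and 0.99 for macrophage identity genes.

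Enzymes that break down chitobiose and handle free N-acetylglucosamine, the products of chitin digestion and of glycan turnover, were partly higher. They numbered 6 of 11 and none was lower, beside 14.1% and 10.3% of genes considered. The median log2 ratio was 0.70, under the 0.99 of macrophage identity genes. Renbp, which interconverts N-acetylglucosamine and N-acetylmannosamine, had a ratio of 2.05 (1.92 to 2.19). Gnpda1, which turns glucosamine 6-phosphate into fructose 6-phosphate, had a ratio of 2.02 (1.92 to 2.13). Hexa, a lysosomal hexosaminidase subunit, had a ratio of 1.84 (1.79 to 1.89). Nagpa, which uncovers the mannose 6-phosphate tag of lysosomal enzymes, had a ratio of 1.76 (1.65 to 1.88).

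The receptor through which IL-4 acts had a ratio almost equal to that of Chil3. Il4ra, the IL-4 receptor alpha chain, was at 551 CPM in the M2+GANT61 library and 146 CPM in the M2+DMSO library, a ratio of 3.77 (3.68 to 3.86). Irf4, a transcription factor of the IL-4 programme, had a ratio of 2.86 (2.64 to 3.09) and Il2rg, the shared cytokine receptor chain, of 2.004 (1.93 to 2.08). Stat6 had a ratio of 1.25 (1.21 to 1.29), under the threshold. Pparg, a nuclear receptor of alternative activation that is also the main regulator of adipocytes, was lower, at 0.239 (0.217 to 0.262). The adipocyte marker list was lower beside it, 10 of 10, at a summed 1117 CPM in the M2+GANT61 library and 6714 CPM in the M2+DMSO library, and its part in the Pparg value was not tested. Car3, its most abundant gene, had a ratio of 0.133 (0.131 to 0.135). This axis had 6 of 15 genes higher and 1 lower, beside 14.1% and 10.3% of genes considered. Its median log2 ratio was 0.32, under the 0.99 of macrophage identity genes.

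Most other markers of alternative activation, 16 of 20, were higher and none was lower, beside 14.1% and 10.3% of genes considered. The median log2 ratio of the 20 was 1.21, against 0.99 for macrophage identity genes. Arg1, which splits arginine, came closest to Chil3 from above, at 3.86 (3.81 to 3.91). Cd163, a haemoglobin scavenger receptor, had a ratio of 9.02 (8.83 to 9.22) and Mrc1, a receptor for mannose-bearing glycoproteins, of 5.54 (5.46 to 5.62). The checkpoint ligand Pdcd1lg2 was at 4.95 (4.66 to 5.26), and Il1rn, which blocks interleukin 1, at 4.72 (4.502 to 4.96). Retnla, the other secreted protein classically paired with Chil3, did not share its difference. It was at 392 CPM in the M2+GANT61 library and 386 CPM in the M2+DMSO library, a ratio of 1.02 (0.997 to 1.03).

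Genes of lipid-loaded and storage macrophages, the setting in which human chitotriosidase is known, were higher in 13 of 18 cases and lower in 0. Over all genes considered these shares were 14.1% and 10.3%. The median log2 ratio of the list was 0.86, under the 0.99 of macrophage identity genes. Atp6v0d2, a proton pump subunit, had a ratio of 4.68 (4.32 to 5.07) and Ctsk, cathepsin K, of 3.91 (3.80 to 4.02). Spp1, osteopontin, had a ratio of 2.89 (2.86 to 2.92) and Gpnmb, a lysosomal membrane protein, of 2.85 (2.67 to 3.05).

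Over 2 libraries a pattern is a single ratio, so likeness between genes is weak information. Among the listed genes that averaged 5 CPM or more, the ratios closest to Chil3 were those of Il4ra and Arg1. Closest to Chil1 were Ltf, lactoferrin, at 4.33 (4.21 to 4.46), and Mmp9, gelatinase B, at 4.29 (4.19 to 4.39), both stored in neutrophil granules and also made by other cells. Closest to Chit1 were Cd44 and Clec10a, a macrophage lectin, at 1.49 (1.42 to 1.56). Closest to Chil4 were Clca1, a goblet cell protein, at 32.4 (27.6 to 38.4), and Mmp8, neutrophil collagenase, at 9.95 (8.35 to 12.03).

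The macrophage, alveolar macrophage, neutrophil, eosinophil and mast cell, fibroblast, and T and B cell lists had median ratios above 1. Medians lay below 1 for the epithelial, secretory airway and goblet, endothelial and adipocyte lists, and lowest for adipocyte markers, at 0.161. Over all genes considered 14.1% were higher and 10.3% lower, the shares to set beside every count of calls in this paragraph. Macrophage identity genes were higher in 16 of 19 cases and lower in 1, with a median ratio of 1.98. The lower one was Cx3cr1, a chemokine receptor, at 0.508 (0.471 to 0.548). They summed to 11149 CPM in the M2+GANT61 library and 5346 CPM in the M2+DMSO library. Lyz2, the most abundant, had a ratio of 2.10 (2.09 to 2.12). The ratios of Chil3 and Chil1 exceeded this median, and that of Chit1 did not reach it. Neutrophil markers, 10 of 14 over the floor, were higher in 7 cases and lower in 1. They summed to 1909 CPM in the M2+GANT61 library and 724 CPM in the M2+DMSO library. Their median ratio was 3.21, with S100a9, a calprotectin subunit, at 6.62 (6.29 to 6.97) and the chemokine receptor Cxcr2 at 6.14 (5.47 to 6.93). The lower one was Ngp, at 0.584 (0.424 to 0.792). Lcn2, the most abundant of them and also made by epithelia, had a ratio of 1.16 (1.14 to 1.18). Retnlg had a ratio of 1.12 (1.03 to 1.22), under the threshold. No neutrophil marker was at 0 reads, but Elane and Mpo, made by neutrophil precursors, and Camp and Ly6g stayed below 1 CPM in both libraries. Elane (0.593), Mpo (0.627) and Camp (0.589) had ratios below 1 with intervals that include 1, and Ly6g had 2.57 (1.34 to 5.47). Alveolar macrophage markers, 6 of 9 over the floor, were higher in 5 cases and lower in 0. They had a median ratio of 2.35 and summed to 431 CPM in the M2+GANT61 library and 200.02 CPM in the M2+DMSO library. Of these, Marco, Ear1 and Fabp1 were below 1 CPM in both, and Itgax, the most abundant and also a dendritic cell marker, had a ratio of 2.86 (2.76 to 2.97). Eosinophil and mast cell markers, 5 of 10 higher, summed to 136 CPM in the M2+GANT61 library and 97.8 CPM in the M2+DMSO library, and had a median ratio of 1.66. Ms4a2, a chain of the IgE receptor, had a ratio of 3.69 (2.83 to 4.92) and Il5ra, the IL-5 receptor, of 2.26 (1.80 to 2.86). Kit, the most abundant, was at 0.979 (0.918 to 1.04), the only 1 of them below 1. Epx, the eosinophil peroxidase, was below 1 CPM in both.

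Beside the counts of calls in this paragraph stand 14.1% higher and 10.3% lower over all genes considered. Epithelial markers had a median ratio of 0.795, with 1 of 15 higher and 4 lower. They summed to 3844 CPM in the M2+GANT61 library and 4472 CPM in the M2+DMSO library. Krt18, a keratin of simple epithelium and 1 of the 4 lower, had a ratio of 0.583 (0.575 to 0.591). The higher one was Krt5, also a keratin, at 3.13 (3.04 to 3.22). Of 7 secretory airway and goblet markers, 2 over the floor, 1 was higher, Clca1. The 7 had a median ratio of 0.805 and sums of 97.7 CPM in the M2+GANT61 library and 24.6 CPM in the M2+DMSO library. Clca1 held 79.9 CPM of the first sum and 2.46 CPM of the second. Foxj1, the other over the floor, was at 16.9 CPM in the M2+GANT61 library and 20.9 CPM in the M2+DMSO library. Scgb1a1, Muc5ac, Spdef and Bpifa1 were below 1 CPM in both, and Agr2 had 0 reads in the M2+GANT61 library. Fibroblast markers had 1 of 10 higher, 1 lower, a median ratio of 1.13 and sums of 15823 CPM in the M2+GANT61 library and 12572 CPM in the M2+DMSO library. The higher one was Fn1, fibronectin, the most abundant, at 1.92 (1.91 to 1.93), and the lower one Postn, at 0.613 (0.606 to 0.619). Endothelial markers had 0 of 8 higher, 2 lower, a median ratio of 0.779 and sums of 532 CPM in the M2+GANT61 library and 620 CPM in the M2+DMSO library. Pecam1, the most abundant, was at 1.10 (1.07 to 1.13), the only 1 of them above 1, and Cldn5, a tight junction protein, at 0.471 (0.441 to 0.502). T and B cell markers had 0 of 8 called and a median ratio of 1.04, with Cd3g, the most abundant, at 0.948 (0.892 to 1.01). The part of any of these cell types in the ratios of the members was not tested.

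**Figure D5:**
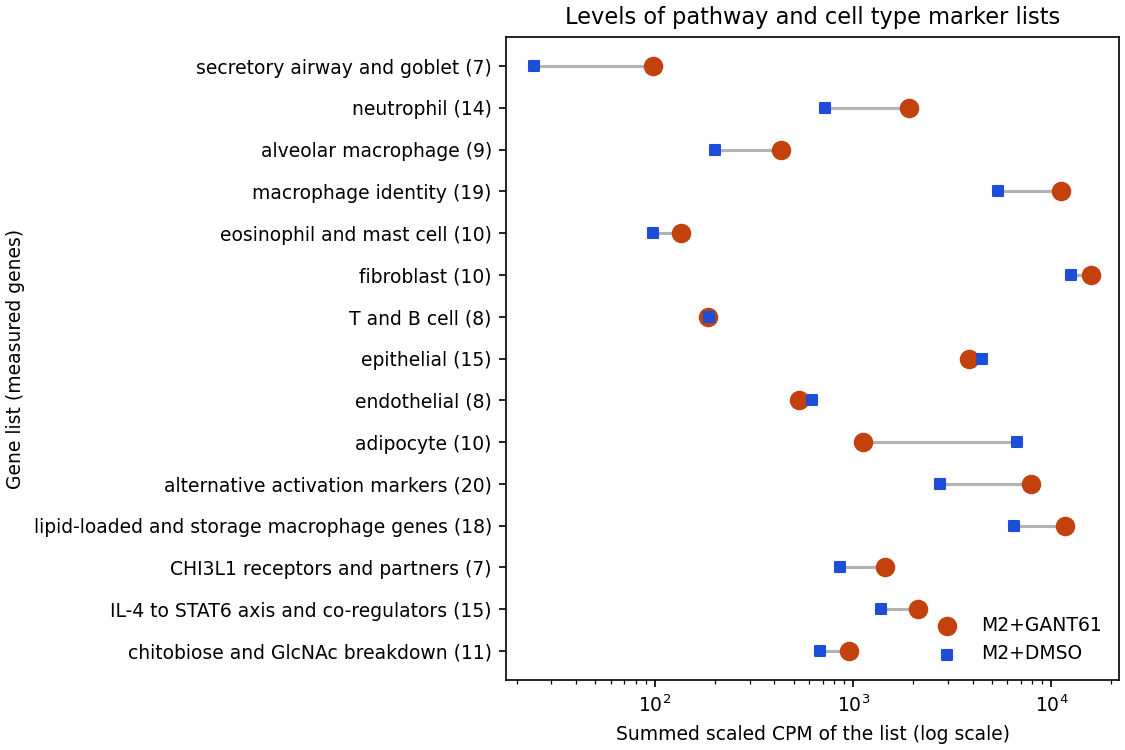
Summed scaled CPM (x axis, log scale) of each gene list with the number of its measured genes (y axis), in the M2+GANT61 library (circles) and the M2+DMSO library (squares). Macrophage identity genes sum to 11149 and 5346 CPM, neutrophil markers to 1909 and 724 CPM and adipocyte markers to 1117 and 6714 CPM in that order of libraries.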

How the data were processed

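Messenger RNA was measured in 2 libraries, 1 per group. The authors deposited a table of expected counts per gene, without normalization, and a table of RPKM values (reads over gene model length and library total), as the file headers and values show. STAR, HISAT2, cutadapt, SAMtools, Partek, mm10 and hg19 are named in the submitters' processing notes, with no roles. The counter, annotation, read length and strandedness are not given in the sources used here. Of the deposited expected counts, 29.3% in the M2+GANT61 library and 29.5% in the M2+DMSO library were not whole, so reads shared between genes can have been divided. They were rounded to whole numbers. The treatment in each column's name tied it to its library. The numbers in the column names differ from those in the sample titles, so the direction of every ratio rests on the treatment names.

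Library scaling used TMM factors (edgeR 4.0.16, R 4.3.3). Ratios of M2+GANT61 over M2+DMSO were taken after adding a prior of 0.5 reads to both counts, with exact Clopper-Pearson bounds at 95% (scipy 1.17.1). Bounds cover counting error alone, because each group had 1 library. They take every read as independent, and PCR copies of a molecule cannot be recognised here, so the true bounds can be wider. The calculation was checked on simulated counts that held counting error only, so the check says nothing about spread between libraries. Other scalings, among them DESeq2 1.42.0 size factors, prior counts and floors were tried. Sequences were aligned with Biopython 1.88.

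The members and the 16 gene lists were chosen with earlier results of these data known. All members and GH18 relatives are named. Of each pathway list, up to 4 called genes with the largest ratios and a mean of at least 5 CPM are named, or up to 2 abundant ones where none was called. Of each marker list the most abundant gene is named. For each member, the 2 listed genes closest in log2 ratio are also named. Other genes were chosen after their values were seen.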

Additional observations from a re-analysis of the deposited data

How the results depend on the processing

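With DESeq2 size factors, total counts or upper-quartile factors, with unrounded counts and with the deposited RPKM values, the ratios of Chil1, Chil3, Chil4, Chit1 and the Chil3 and Chil4 sum stayed within their counting intervals. So they did with a smaller and a larger prior count, which put Chil4 at 43.1 and 23.4. Setting the macrophage identity median to 0 gave 2.18 for Chil1, 1.92 for Chil3, 0.746 for Chit1, 18.6 for Chil4 and 1.94 for the sum. It gave 368 genes higher and 11168 lower and 2 GH18 genes lower (Chid1 and Ctbs), against 0. A fold threshold of 2 gave 972 higher and 595 lower. Chil3 and Chil1 were called under each scaling, floor and fold threshold tried. No paired analysis was possible because each group has 1 library. For the same reason no library could be left out. Depth limits Chil4, with 2 reads in the M2+DMSO library, most.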

Other observations

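The neighbours of Chit1 and Chil1 included 2 genes called lower, Adora1 and Fmod, and none called higher, beside 10.3% and 14.1% of genes considered. These neighbours are the protein-coding genes within 100000 bases of the pair, a choice made after the values were seen. Adora1, the adenosine A1 receptor, was at 1.67 CPM in the M2+GANT61 library and 20.3 CPM in the M2+DMSO library, a ratio of 0.0828 (0.0662 to 0.102). Fmod, the collagen-binding proteoglycan fibromodulin, was at 5.84 CPM in the M2+GANT61 library and 11.0 CPM in the M2+DMSO library, a ratio of 0.533 (0.466 to 0.609). Btg2, an antiproliferative factor, had a ratio of 1.14 (1.09 to 1.19). Mybph had 23 reads in the M2+GANT61 library and 12 in the M2+DMSO library, a ratio of 2.07 (1.01 to 4.65). Its interval holds the ratios of Chil3, Chil1 and Chit1. Myog had 1 read in each library. Mybph and Myog lay under the floor, so they could not be called. Around Chil3 and Chil4 the same window gave no such gene with a value here.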
